A study of Mus musculus with 6 samples.

Results

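Sprr1a, Sprr2a1 and Sprr2a2 are genes of the small proline-rich protein family, and they are 3 of the 17684 genes listed in the kidney gene table. They were selected on the contrast described here, because their counts differed between the groups, so their own difference is given as a description without a test. The study asked what long atorvastatin treatment does to the kidney of aged diabetic mice. RNA was sequenced from kidneys of 3 Db and 3 Db + Ato10 samples, all from db/db mice of strain C57 BLKS/L (as labelled; the methods name C57BLKS/J) aged 50 weeks. These mice carry a defective leptin receptor gene, which leads to obesity and diabetes. The Db group received saline and the Db + Ato10 group received atorvastatin, an inhibitor of cholesterol synthesis, at 10 mg/kg per day of dosing over 40 weeks. The drug was given by gavage. In 1 field of the sample records all 6 samples are described as treated with atorvastatin, while the treatment field tells saline from atorvastatin, and the groups follow the treatment field. Nondiabetic mice were not analysed here.

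Small proline-rich proteins are precursors of the cornified envelope, the protein shell beneath the membrane of a terminally differentiated keratinocyte, and transglutaminases cross-link them into it. Their genes lie together in the epidermal differentiation complex, beside the genes of loricrin, involucrin and many S100 proteins. Outside the skin, Sprr1a is known as a gene induced by stress, by cytokines that signal through gp130 and by nerve injury, and Sprr2 genes are known to be induced in injured or inflamed simple epithelia.

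Library totals were 13134930, 11381678 and 12426051 counts in Db replicates 1 to 3 and 14578023, 14667909 and 13133241 in Db + Ato10 replicates 1 to 3. Values are given as CPM, counts scaled to the size of the library with TMM normalization. A gene with 3 counts, taken as the floor of detection, stands at 0.197 to 0.259 CPM depending on the library. All intervals and floors given here cover counting error only. The tissue label was checked on 9 kidney epithelial markers. All 9 were counted in the table. Abundance within a list is ranked here and below by FPKM, which is scaled to length, averaged over the 6 libraries. Umod, which encodes uromodulin of the thick ascending limb, ranked first on this mean, although Slc34a1 (named after its values were seen), a phosphate transporter of the proximal tubule, was above it in 4 of the 6 libraries. The summed level of the 9 markers was 15470, 14015 and 15011 CPM in Db replicates 1 to 3. It was 6416, 5716 and 12893 CPM in Db + Ato10 replicates 1 to 3. On this measure Db + Ato10 replicate 3 stood nearest to the Db libraries, and DESeq2 called 3 of the 9 genes lower in Db + Ato10 (against 1.29% of all tested genes) while edgeR called 0.

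The study used male mice, and the libraries were compared on 4 Y-linked genes. Db replicate 1 had 2 counts over these genes, and the other 5 libraries had between 1419 and 2116. Db replicate 1 goes against the sex given in the methods, so fold changes and list medians below are followed by their values without it, an alternative added after the data were seen.

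Sprr1a encodes an envelope precursor with short proline-rich repeats. It was counted 18, 28 and 17 times in Db replicates 1 to 3 and 222, 311 and 174 times in Db + Ato10 replicates 1 to 3. Every Db + Ato10 library lay above every Db library, and the 3 Db + Ato10 libraries differed among themselves by a factor of 1.79 in counts. Per length, the level was 2.74 ± 0.973 FPKM in Db and 26.0 ± 6.56 FPKM in Db + Ato10 (SD, n = 3). The fitted log2 fold change was 3.23, and it was 3.12 without Db replicate 1. In bulk kidney RNA, fewer or more cells that express a gene cannot be told apart from less or more RNA per cell.

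Sprr2a1 and Sprr2a2 are near-identical neighbouring genes, and their counts have to be read together with those of the third copy, Sprr2a3. Sprr2a1 was estimated at 3.5, 0.5 and 2.5 counts in Db replicates 1 to 3 and at 331, 186 and 76.0 counts in Db + Ato10 replicates 1 to 3. Sprr2a2 was estimated at the same 3.5, 0.5 and 2.5 counts in Db and at 1823, 905 and 266 counts in Db + Ato10. Sprr2a3 had 1, 0 and 0 counts in Db and 77.5, 53.5 and 7.12 in Db + Ato10. All 3 copies were high in Db + Ato10 replicate 1, intermediate in replicate 2 and lowest in replicate 3, and no Db library reached any of these values.

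Sprr2a1 and Sprr2a2 had equal counts (within 0.01) in 3 of 3 Db libraries and in 0 of 3 Db + Ato10 libraries. The 3 copies summed to a whole number (within 0.01) in all 6 libraries, although the value of Sprr2a1 was a fraction in each. In Db + Ato10 replicates 1 to 3, Sprr2a2 took 81.7%, 79.1% and 76.2% of the Sprr2a counts. Each Sprr gene had 1 transcript in the transcript table, with counts equal to those of its gene, so the transcripts do not separate the copies either. The single copies are therefore uncertain, and their values below are given only as deposited, beside those of the sum.

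The near identity can be seen in the coding sequences of the GENCODE transcripts. Those of Sprr2a1 (chr3:92219092-92219340, plus strand, GRCm38) and Sprr2a2 (chr3:92253905-92254153, plus strand) were identical over all 249 bases. That of Sprr2a3 (chr3:92288588-92288836, plus strand) differed from them at 3 positions. Capitals mark these positions in the sequences of Sprr2a1 and Sprr2a3. A read within the coding sequence can tell Sprr2a3 from the other copies only there. The coding sequence is a small part of the Sprr2a1 transcript, 249 of 3003 bases, and reads outside it can meet other differences.
Sprr2a1: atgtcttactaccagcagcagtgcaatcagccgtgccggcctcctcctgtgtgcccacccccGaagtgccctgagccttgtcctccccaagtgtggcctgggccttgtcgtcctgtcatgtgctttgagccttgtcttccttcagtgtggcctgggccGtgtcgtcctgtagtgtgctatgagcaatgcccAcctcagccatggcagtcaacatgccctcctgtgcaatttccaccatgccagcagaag
Sprr2a3: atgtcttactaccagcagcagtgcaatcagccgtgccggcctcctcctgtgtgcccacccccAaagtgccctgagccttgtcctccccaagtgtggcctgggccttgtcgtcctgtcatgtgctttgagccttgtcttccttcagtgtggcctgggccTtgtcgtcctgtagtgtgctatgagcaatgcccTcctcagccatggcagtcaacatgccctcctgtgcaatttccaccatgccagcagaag

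Of the windows of 100 bases in the Sprr2a1 transcript, 92.4% also occurred in a transcript of another of the 7 Sprr genes in the table. The share was 92.8% for the longer Sprr2a2 transcript and 100% for the shorter one, and it was 0% for Sprr1a, Sprr2d, Sprr2e and Sprr2f. For the 2 transcripts of Sprr2a3 it was lower, 16.6% and 36.2%. Among these 7 genes, Sprr1a and Sprr2f thus shared no window of this length, while the Sprr2a copies did to different degrees. Sprr genes outside the table and transcripts of other genes were not compared. With windows of 50 bases the share was 0% for Sprr1a, 0.714% for Sprr2f, 3.8% for Sprr2d and 4.68% for Sprr2e. It was 47.4% and 61.1% for the Sprr2a3 transcripts.

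Summed over the 3 copies, Sprr2a had 8, 1 and 5 counts in Db replicates 1 to 3 and 2231, 1144 and 349 counts in Db + Ato10 replicates 1 to 3. The lowest Db + Ato10 library lay far above the highest Db library, and the Db + Ato10 libraries spread over a factor of 6.39, wider than for Sprr1a. On the CPM scale the group totals differed 227-fold (95% counting interval 135 to 417), and 348-fold without Db replicate 1 (160 to 948). The fitted log2 fold change of the sum was 7.75, and 8.35 without Db replicate 1. The fitted values of the single copies were 6.29 for Sprr2a1 and 8.60 for Sprr2a2, or 7.20 and 9.52 without Db replicate 1, and depend on how reads were shared.

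The level of Sprr2a per length depends on the gene model. The deposited counts and FPKM imply that Sprr2a1 and Sprr2a2 were each scaled to a length 4.83 times that of Sprr2a3. Summed as deposited, Sprr2a stood at 51.0, 27.2 and 8.46 FPKM in Db + Ato10 replicates 1 to 3. With all reads placed on the short model of Sprr2a3, a setting added after the data were seen, it stood at 217, 112 and 38.2 FPKM. Sprr1a, at 23.7, 33.4 and 20.9 FPKM, was below Sprr2a in all 3 libraries on the short model but above it in replicates 2 and 3 on the deposited models, so the order of Sprr1a and Sprr2a is not settled.

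Across the tested genes, every Db + Ato10 library lay above every Db library for 1640 of 13679 (12.0%). All 3 selected genes had this pattern, which nothing is read from because they were chosen on this contrast. Sprr2a1 and Sprr2a2 passed the filter of at least 10 counts in 3 libraries through the Db + Ato10 group alone and so had to differ, whereas Sprr1a passed it in every library.

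**Figure D1:**
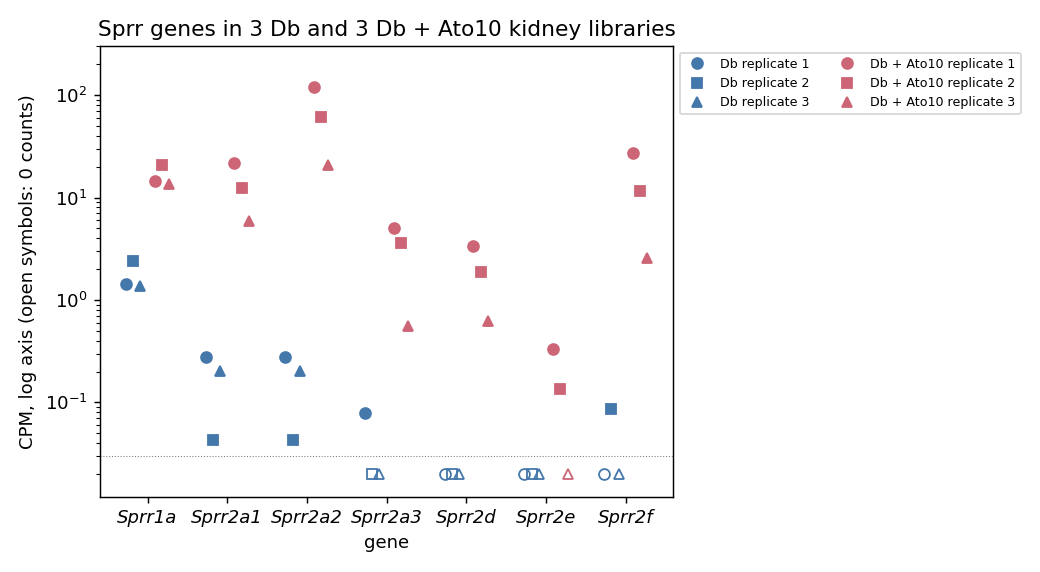
CPM of the 7 Sprr genes of the gene table in each library, on a log axis, with 1 symbol per library and open symbols at the bottom for 0 counts. The Sprr2 genes are at or near 0 in Db and spread widely in Db + Ato10, whereas Sprr1a was counted in all 6 libraries.

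The family list held 4 further genes in the table, Sprr2a3, Sprr2d, Sprr2e and Sprr2f. Sprr2f had 0, 1 and 0 counts in Db replicates 1 to 3 and 411, 173 and 33 in Db + Ato10 replicates 1 to 3. Sprr2d had 0 counts in every Db library and 51, 28 and 8 in Db + Ato10. Sprr2e had 0 counts in every Db library and 5, 2 and 0 in Db + Ato10. The order of the Db + Ato10 libraries was the same as for Sprr2a in each of these genes, and only Sprr2e overlapped with Db.

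Sprr2f was the only further family gene that passed the filter. It passed through Db + Ato10 alone and so had to differ, so no p is given for it. It was not called by edgeR with all libraries, while DESeq2, and edgeR without Db + Ato10 replicate 3, called it, and nothing is read from these calls. Its log2 fold change was 8.55 ± 1.35 (SE). Leaving out Db replicate 2, which holds its single Db count, gave 10.55, leaving out Db replicate 1 gave 8.09, and over all 16 alternatives the log2 fold change ran from 4.39 to 10.55. A fitted value with so few Db counts depends on the prior count and is no bound. On group totals the ratio was 528 (95% counting interval 94.4 to 20874, from 1 Db count), and 346 without Db replicate 1 (61.8 to 13677). Sprr2a3, with 1 Db count, had a ratio of 118 (20.8 to 4695). Without Db replicate 1, which held that count, it was at least 25.8-fold higher against a floor of 3 counts over the group, with a lower 95% counting bound of 20.7. These Sprr2a3 values rest on deposited estimates that depend on how reads were shared, unlike those of the sum given above. Sprr2d, at 0 in Db, was at least 24.8-fold higher against the same floor, with a lower 95% counting bound of 19.7. Without Db replicate 1 it was at least 16.2-fold higher, with a lower counting bound of 12.9. No fold is given for Sprr2e, which was near the floor.

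The proportions of the other genes to Sprr2a were compared within the Db + Ato10 libraries. Per 100 Sprr2a counts, Sprr2d had 2.29, 2.45 and 2.29 counts in Db + Ato10 replicates 1 to 3. Sprr2f had 18.4, 15.1 and 9.46, and Sprr1a had 9.95, 27.2 and 49.9. For Sprr2d, replicate 3 rests on 8 counts (95% counting interval 0.982 to 4.57), so a difference between the libraries was not detectable at this depth. For Sprr2f the interval was 6.41 to 13.5 in replicate 3 and 16.5 to 20.5 in replicate 1. For Sprr1a it was 41.3 to 60.0 in replicate 3 and 8.63 to 11.43 in replicate 1. These intervals describe single libraries and carry no spread between animals.

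No gene met both call criteria (fold change over 1.5 and adjusted p under 0.05) with edgeR, 0 of 13679 (0%). At an unadjusted p under 0.05, 1533 genes (11.2%) were higher and 781 (5.71%) lower in Db + Ato10. DESeq2 called 707 genes (5.17%) higher and 177 (1.29%) lower. Without Db replicate 1 edgeR again called 0 genes, and without Db + Ato10 replicate 3 it called 1236 of the same tested genes, or 1097 with the filter applied again to the 5 libraries. With samples whose separate origin is known only from the labels, these p-values measure the spread between the samples.

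Most other listed envelope precursors of the epidermal differentiation complex were absent or near the floor. Of 36 listed genes, 12 were in the table and 2 passed the filter, Tchh and Tchhl1, which encode trichohyalin and a related protein of the hair follicle. Their log2 fold changes were -0.09 ± 0.37 and 0.38 ± 0.58 (SE), or -0.17 and 0.43 without Db replicate 1, and their groups overlapped. Involucrin (Ivl), named after its values were seen, was at 0 in all Db libraries and at 0.394, 0.539 and 0.236 CPM in Db + Ato10 replicates 1 to 3, which is near the floor. Flg, named in the same way, was lower without overlap in CPM and also near or below the floor. It stood at 0.317, 0.259 and 0.0806 CPM in Db and at 0, 0.0673 and 0.0785 CPM in Db + Ato10. Its counts, 4, 3 and 1 in Db and 0, 1 and 1 in Db + Ato10, did overlap.

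The S100 genes of the same complex encode calcium-binding proteins. Of 10 tested genes, edgeR called 0, 7 had an unadjusted p under 0.05 with a higher level in Db + Ato10 (70%, against 11.2% of all tested genes) and 0 a lower one. Their median log2 fold change was 1.56 (1.47 without Db replicate 1), against -0.01 over all tested genes, and DESeq2 called 4 higher, against 5.17% of all tested genes. S100a11, which encodes a protein of the cornified envelope, stood at 136, 185 and 167 CPM in Db and at 817, 517 and 271 CPM in Db + Ato10 replicates 1 to 3. S100a10 stood at 124, 145 and 103 CPM in Db and at 267, 245 and 175 CPM in Db + Ato10. S100a6 stood at 8.72, 19.6 and 11.5 CPM in Db and at 445, 87.1 and 22.5 CPM in Db + Ato10. These 3 genes, named for their small p on the same contrast, were among the 6 of 10 that were higher without overlap (60%, against 12.0% of all tested genes), and each was lowest in Db + Ato10 replicate 3 among the treated libraries. S100a9, a protein of neutrophils, stood at 5270, 42.7 and 5.34 CPM in Db + Ato10 replicates 1 to 3 and between 2.06 and 4.58 CPM in Db, so its group mean rests on replicate 1.

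Another list held the genes that cross-link the envelope or anchor it at desmosomes. Of 13 tested genes, edgeR called 0 and DESeq2 called 1 higher, a share near the 5.17% of all tested genes, and 3 had an unadjusted p under 0.05 with a higher level (23.1%, against 11.2% of all tested genes) and 0 with a lower one. Their median log2 fold change was 0.10 (0.12 without Db replicate 1). Tgm1, the transglutaminase of keratinocytes, stood at 8.56, 16.1 and 21.7 CPM in Db and at 29.3, 33.2 and 49.6 CPM in Db + Ato10 replicates 1 to 3. It was highest in Db + Ato10 replicate 3, unlike the Sprr2 genes, and its log2 fold change was 1.27 ± 0.37 (SE, edgeR's quasi-likelihood test, Benjamini-Hochberg adjusted p = 0.239), or 0.99 without Db replicate 1. Tgm1 was the gene of this list that DESeq2 called. Pkp3 and Ppl, which encode plakophilin 3 and periplakin, had log2 fold changes of 0.57 and 1.12, or 0.52 and 0.98 without Db replicate 1, and the Ppl values overlapped between the groups. Jup, which encodes plakoglobin and had the highest mean FPKM of the list, stood between 170 and 191 CPM in all 6 libraries.

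Among gp130 cytokines and their signalling genes, 14 were tested. edgeR called 0, DESeq2 called 5 higher (against 5.17% of all tested genes), and 5 had an unadjusted p under 0.05 with a higher level (35.7%, against 11.2%) and 0 with a lower one. The median log2 fold change over the list was 0.65 (0.72 without Db replicate 1). Lif, a cytokine that signals through gp130, stood at 0.396, 2.85 and 0.483 CPM in Db and at 9.92, 10.98 and 9.11 CPM in Db + Ato10 replicates 1 to 3. Stat3, the transcription factor of the pathway, stood at 121, 136 and 98.8 CPM in Db and at 284, 230 and 203 CPM in Db + Ato10. Socs3, its feedback inhibitor, stood at 2.85, 8.38 and 3.06 CPM in Db and at 205, 30.3 and 22.5 CPM in Db + Ato10. These 3 genes, named for their small p on the same contrast, were among the 5 of 14 that were higher without overlap (35.7%, against 12.0% of all tested genes), while 1 of the list was lower without overlap (7.14%, against 11.3%). None of the 3 passed the edgeR test after adjustment (adjusted p = 0.239 for each), while DESeq2 called each of them higher.

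The list of receptors for interleukins 4, 13 and 22 also holds Stat6, a transcription factor of that signalling. Of its 6 tested genes, edgeR called 0, DESeq2 called 1 higher (against 5.17% of all tested genes), and 3 had an unadjusted p under 0.05 with a higher level (50%, against 11.2%) and 0 with a lower one. The median log2 fold change was 0.58 (0.49 without Db replicate 1). Il2rg, the shared receptor chain, had a log2 fold change of 2.93 ± 0.96 (SE), or 2.67 without Db replicate 1, and was among the 2 of the 6 that were higher without overlap (33.3%, against 12.0% of all tested genes). Il13ra1 was at 0.81 ± 0.28 (0.69 without Db replicate 1), and Il4ra, at 2.01 ± 0.75 (1.92 without it), overlapped between the groups. Il10rb, which had the highest mean FPKM of the list, was at 0.35 ± 0.18 (0.28 without Db replicate 1). The only tested gene of the list below 0 was Il22ra1, a receptor chain for interleukin 22. It was at -0.64 ± 0.63 (-1.10 without Db replicate 1), and its groups overlapped with all libraries.

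The list of AP-1, ETS, KLF and POU factors also holds Zfp750, Ovol1 and Grhl3, which are of other families. Its only POU gene, Pou2f3, was not tested, nor were Grhl3 and the AP-1 gene Fosl1. Of the 16 tested genes of the list, edgeR called 0 and DESeq2 called 6 higher (against 5.17% of all tested genes). An unadjusted p under 0.05 was found for 10 with a higher level (62.5%, against 11.2%) and for 0 with a lower one. The median log2 fold change was 1.13 (1.33 without Db replicate 1), and all 16 were above 0, or 15 without Db replicate 1, as were 6757 of the 13679 tested genes, or 6898 without it. Elf3, an epithelial ETS factor, stood at 27.3, 24.9 and 24.4 CPM in Db and at 100, 68.2 and 39.8 CPM in Db + Ato10 replicates 1 to 3. Klf6 stood at 74.9, 72.6 and 51.2 CPM in Db and at 288, 289 and 96.9 CPM in Db + Ato10. Junb stood at 10.2, 18.1 and 12.9 CPM in Db and at 287, 53.5 and 38.2 CPM in Db + Ato10. Jund, which had the highest mean FPKM of the list, had a log2 fold change of 0.88 ± 0.28 (SE), or 0.91 without Db replicate 1, and these 4 factors were among the 9 of 16 that were higher without overlap, against 12.0% of all tested genes. Elf3, Klf6 and Junb were named for their small p on the same contrast.

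**Figure D2:**
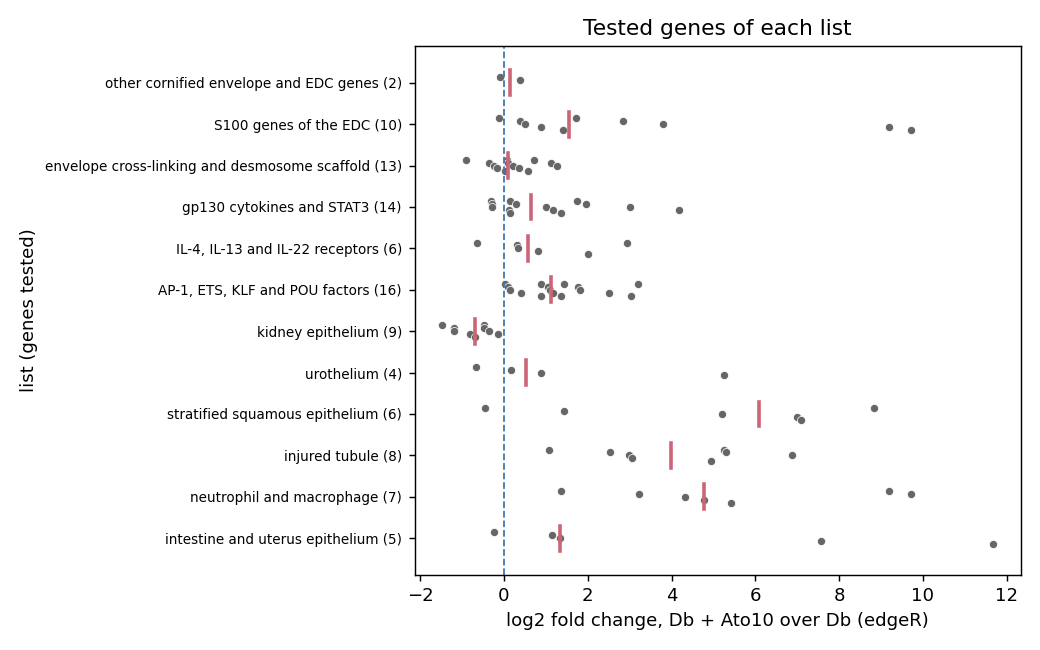
edgeR log2 fold change of each tested gene (points) in each list, Db + Ato10 over Db, with the list's median as a vertical bar and the median of all 13679 tested genes, -0.01, as a dashed line. Points of the squamous, injured tubule and neutrophil and macrophage lists lie mostly to the right. Krt20, S100a8 and S100a9 appear in more than 1 list, and the fitted value of Reg3g, at 0 counts in Db, depends on the prior count.

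Marker genes of other cell types also moved between the libraries, and their part in the Sprr difference was not tested. The 14 stratified squamous markers summed to 6.10, 7.09 and 8.38 CPM in Db and to 166, 99.7 and 32.4 CPM in Db + Ato10 replicates 1 to 3. Krt5, the basal keratin, had the highest mean FPKM of them, through Db + Ato10, while Krt10 made up most of the sum in Db. Krt13, Krt16, Krt17, Krt6a, Krt6b and Dsg3 were at 0 in Db and Krt1 in Db + Ato10. Of 6 tested squamous genes, edgeR called 0 and DESeq2 4 higher (against 5.17% of all tested genes), and these 4 had passed the filter through Db + Ato10 alone and so had to differ. The sums lay in the same order as the Sprr2a counts in the Db + Ato10 libraries. This order was not particular to the squamous list. The urothelial, neutrophil and macrophage, and intestine and uterus sums given below had it too, while the injured tubule sums did not.

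The 8 urothelial markers summed to 9.59, 12.97 and 13.3 CPM in Db and to 107, 87.2 and 24.1 CPM in Db + Ato10 replicates 1 to 3. In Db + Ato10 the sum was mostly Krt20, which is also a marker of injured tubules, at 74.0, 70.4 and 17.9 CPM, and in Db it was not. The 5 uroplakin genes of the list were each at or below 6.11 CPM in every library. Upk3a stood at 0.396, 0.0864 and 0.644 CPM in Db and at 6.11, 2.02 and 0.236 CPM in Db + Ato10 replicates 1 to 3. Upk1b stood at 0.713, 0.0864 and 0.644 CPM in Db and at 2.96, 1.75 and 0.707 CPM in Db + Ato10. The mean of Upk1a was lower in Db + Ato10, at 1.35 CPM against 2.15 CPM in Db. Each of the 5 overlapped between the groups.

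The 8 injured tubule markers summed to 3702, 4636 and 2487 CPM in Db and to 16174, 32524 and 11197 CPM in Db + Ato10 replicates 1 to 3, with Spp1 (osteopontin) the highest in mean FPKM. DESeq2 called 8 of 8 tested genes higher (against 5.17% of all tested genes) and edgeR 0. The 9 neutrophil and macrophage markers summed to 89.0, 133 and 114 CPM in Db and to 12006, 792 and 159 CPM in Db + Ato10. S100a9 had the highest mean FPKM of them through Db + Ato10 replicate 1 alone, and Lyz2 was above it in the other 5 libraries. The intestine and uterus list, of which 6 of 8 genes were in the table, summed to 353, 467 and 374 CPM in Db and to 1020, 879 and 557 CPM in Db + Ato10, with Wfdc2 the highest in FPKM in every library. The intestinal factors Cdx1 and Cdx2 were not in the table, and Muc2 was at or below 0.394 CPM in every library. Vil1 stood at 172, 143 and 191 CPM in Db and at 53.2, 176 and 202 CPM in Db + Ato10 replicates 1 to 3.

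The tested genes nearest to Sprr1a in their pattern over the 6 libraries were ranked by the root mean square difference of centred log2 CPM. In order they were Kcnh1 (0.370), Fut2 (0.476), Slc34a2 (0.529), C4b (0.545), Lif (0.565), Trpv6 (0.573), Serpina10 (0.574) and Aldh1a2 (0.576). They include a potassium channel, a phosphate transporter, a complement component and a calcium channel. Kcnh1, for example, stood at 0.238, 0.605 and 0.242 CPM in Db and at 2.23, 7.74 and 2.91 CPM in Db + Ato10 replicates 1 to 3.

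The genes nearest to Sprr2a1, whose own counts are uncertain as described above, were Krt5 (0.541), Krt14 (0.582), Gabrp (0.603), Krt15 (0.603), Cbr2 (0.774), Anxa8 (0.789), Ly6d (0.827) and Sprr2f (0.832). Krt5, Krt14 and Krt15 are keratins of basal epithelial cells. Krt14, for example, stood at 31.1, 13.6 and 5.58 CPM in Db + Ato10 replicates 1 to 3 and at or below 0.0792 CPM in Db. Ranked by the sum of the Sprr2a copies, an alternative added after the data were seen, the nearest were Krt5, Reg3g, Krt15, Krt14, Ltf, Gabrp, Sprr2f and Timp1, and 5 of these 8 genes were shared with the ranking by Sprr2a1. No gene was among the nearest to Sprr1a and to Sprr2a1 at once. The values were centred but not scaled, so a near gene has to have a fold change of similar size. As the log2 fold changes of Sprr1a and Sprr2a1 differ (3.23 and 6.29), nothing is read from the lack of shared genes.

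The promoters of the 7 Sprr genes were taken from RefSeq (GRCm38.p6), 250 bases before to 50 bases after the gene's start. They were searched on both strands for the letters of 5 motifs. The AP-1 motif was written TGANTCA. For ETS factors the letters AGGAAG were used. STAT factors were represented by TTCNNNGAA. The octamer was ATGCAAAT. The TATA box was searched as TATAAA. The matches found did not overlap each other. Of 32851 promoters of the table, 7.81% held the AP-1 letters, 35.4% the ETS letters, 8.30% the STAT letters, 1.74% the octamer and 13.6% the TATA letters. Sprr1a had 2 AP-1 matches and 1 TATA match. Sprr2d, Sprr2e and Sprr2f each had 1 AP-1, 1 octamer and 1 TATA match, and Sprr2f also 1 ETS match. The Sprr2a1 and Sprr2a2 windows, identical over 300 bases, had 1 ETS match and no other. Sprr2a3 had 1 ETS match and 1 STAT match, and no other Sprr promoter held the STAT letters. A match is only a run of letters, and 1 start per gene was searched. The table's Sprr2a starts belong to its gene models. The Sprr2a1 window ended at chr3:92215884, while the coding sequence starts at chr3:92219092. Shorter GENCODE transcripts of Sprr2a2 and Sprr2a3 have 722 and 682 bases. Other possible starts were not searched, so the lack of AP-1, octamer and TATA matches in Sprr2a holds for these windows only.

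Promoters of Sprr1a (chr3:92485832-92486131, minus strand), Sprr2a1 (chr3:92215585-92215884, plus strand) and Sprr2f (chr3:92364937-92365236, plus strand) are shown to set the 3 layouts side by side, with capitals at the matches.
Sprr1a: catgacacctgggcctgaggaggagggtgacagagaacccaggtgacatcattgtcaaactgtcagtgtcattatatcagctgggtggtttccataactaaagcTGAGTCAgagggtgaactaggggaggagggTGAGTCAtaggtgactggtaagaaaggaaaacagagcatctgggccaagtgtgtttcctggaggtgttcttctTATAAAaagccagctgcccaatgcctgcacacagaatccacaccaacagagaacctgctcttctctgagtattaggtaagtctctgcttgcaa
Sprr2a1: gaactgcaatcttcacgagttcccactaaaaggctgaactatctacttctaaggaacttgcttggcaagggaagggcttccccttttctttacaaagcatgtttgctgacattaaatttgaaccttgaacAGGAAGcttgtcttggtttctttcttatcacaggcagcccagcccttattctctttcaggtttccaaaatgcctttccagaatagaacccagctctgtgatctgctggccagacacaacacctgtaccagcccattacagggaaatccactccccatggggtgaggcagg
Sprr2f: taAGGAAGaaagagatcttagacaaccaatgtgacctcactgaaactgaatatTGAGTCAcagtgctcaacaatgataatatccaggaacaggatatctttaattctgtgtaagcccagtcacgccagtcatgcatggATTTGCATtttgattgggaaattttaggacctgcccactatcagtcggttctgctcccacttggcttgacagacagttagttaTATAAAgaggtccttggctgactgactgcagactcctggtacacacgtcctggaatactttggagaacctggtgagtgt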

How the data were processed

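Groups were taken from the treatment labels. The authors deposited expected counts (estimated reads, not normalized), FPKM (scaled to length and library size) and TPM (scaled to length and a fixed total) per gene and transcript. The submitters' processing notes name HISAT, Bowtie2 2.2.5 and mm9, and the counter is not given in the sources used here. Expected counts were rounded for tests, while CPM values used unrounded counts. Genes with at least 10 counts in 3 libraries were tested with edgeR 4.0.16 in R 4.3.3 (TMM, quasi-likelihood F test, Benjamini-Hochberg adjustment over all tested genes). The fit was tested on simulated data. Alternatives used DESeq2 1.42.0, limma 3.58.1, other filters and normalizations, and each library left out. Leave-one-out fits first applied the filter again to the 5 libraries. As that dropped the Sprr2 genes without a Db + Ato10 library, fits on the genes that passed with all 6 were added after the data were seen, and values given without a library come from these unless stated. Counting intervals are exact binomial (95%). log2 CPM used a prior count of 2. Standard errors are the log2 fold change over the square root of F.

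The members and lists were chosen with earlier results of these data known. Named genes were the 3 members, other Sprr genes in the table, of each pathway list the tested gene with the highest mean FPKM and up to 3 with the smallest p, of each marker list the gene with the highest mean FPKM and markers at 0 in all libraries, and the 8 genes nearest to Sprr1a and to Sprr2a1. Ivl, Flg, Stat6, Il22ra1, Pou2f3, Zfp750, Ovol1, Grhl3, Fosl1, Slc34a1, Krt10, Lyz2, S100a8, Reg3g, Vil1 and Muc2 were named after their values were seen. So were Upk1a, Upk1b, Upk3a, markers at 0 in 1 group and the genes nearest to the summed Sprr2a. Cdx1 and Cdx2, absent from the table, were also named later. Coordinates are GRCm38, used for sequences only. Figures used matplotlib 3.10.9 in Python 3.11.15. Protein sequences were not analysed here.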

Additional observations from a re-analysis of the deposited data

How the results depend on the processing

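With edgeR 0 genes were called, and DESeq2 called 884. With a library left out and the filter applied again to the other 5, the count ran from 0 to 1097, the latter without Db + Ato10 replicate 3, and the genes called among the 61 tested genes of the pathway lists (marker lists and Sprr genes not counted), 0 in all libraries and 17 with DESeq2, ran from 0 to 18, by the same library. With the genes that passed in all 6 libraries, fits added after seeing the data, these counts ran from 0 to 1236 and from 0 to 18. The other Sprr genes called were 0, or 1 with DESeq2, and from 0 to 1 in the added fits, again without Db + Ato10 replicate 3. With the filter applied again, the Sprr2 genes could not be fitted without any 1 of the Db + Ato10 libraries. The causes were not tested. The remaining settings called 0 genes in each of these counts.

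The log2 fold change of Sprr1a ran from 2.86 to 3.55 over 22 alternatives. In each it moved by less than the SD of log2 CPM between Db replicates, 0.423. The SD between Db + Ato10 replicates was smaller, 0.329, and on log2(FPKM + 1) the value moved by more than that. That of Sprr2a1 was 7.75 with the copies summed, and on log2(FPKM + 1) and log2(TPM + 1) it was 2.14 and 2.60. Sprr2a2 was at 4.03 and 4.59 on these scales, where the added 1 exceeds the Db values. With a library left out, over both sets of fits, Sprr2a1 ran from 5.75 to 7.20 and Sprr2a2 from 7.89 to 9.52, and in the added fits the summed copies ran from 7.07 to 8.35. With at least 10 counts in every library, the Sprr2 genes could not be fitted. No direction was reversed in these alternatives, nor that of a list median without Db replicate 1.

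The replicate numbers showed no evident pairing of the samples. The correlations of deviations between same-numbered libraries were -0.151, 0.0613 and 0.208, and those between differently numbered libraries ran from -0.374 to 0.311. With so few libraries this cannot exclude a pairing. With the replicate number as a block, 0 genes were called, and the log2 fold changes were 3.25 for Sprr1a, 6.30 for Sprr2a1 and 8.58 for Sprr2a2.

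Equality of the Sprr2a copies in 3 libraries held after rounding, and the 17 promoter matches all lay in the 250 bases before the start.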
